A study of Mus musculus with 4 samples.

Results

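Autophagy and mitochondrial clearance genes were followed in mouse erythrocyte/megakaryocyte progenitors on 4 Agilent arrays of 1 colour each. The set lists 41 genes that build autophagosomes, load them with cargo or pass them to the lysosome, chosen by gene name, and all 41 had at least 1 of 56 probes on the array. A member was kept when a probe was well above background on at least 1 array. That held for 33 of the 41 members, out of 17663 genes so detected among 31703 gene names on the array. Ulk2, Rb1cc1, Atg14, Wipi1, Atg2b, Atg10, Atg16l2 and Atg4a stayed dim on every array, meaning not well above background, and no difference was computed for them.

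The arrays held progenitors from adult bone marrow, labelled Ezh2-null or wild type, and progenitors from E14.5 fetal liver, again labelled Ezh2-null or wild type, all on a C57BL/6 background. Each of these 4 groups was 1 array. No difference between 2 arrays therefore has a replicate check, and differences are given by size alone, called when at least 2-fold. The labels do not say which Cre or promoter removed Ezh2, a histone methyltransferase that silences genes as part of Polycomb repressive complex 2, or how many animals were pooled. Ezh2 itself read 70.03 on the null and 35.4 on the wild-type bone marrow array, and 194 on the null and 33.5 on the wild-type fetal liver array. Its probe was thus brighter on the arrays labelled null, so the genotypes rest on the labels alone. Of 10 progenitor markers, among them the erythroid factor Gata1 and the erythropoietin receptor Epor, 9 were well above background on each bone marrow array, 10 on the null fetal liver array and 8 on the wild-type fetal liver array. Itga2b was dim on all arrays but the null fetal liver array, and Gata2 on the wild-type fetal liver array.

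Autophagy wraps cytoplasm in a double membrane and delivers it to the lysosome. The ULK1 kinase complex starts the process, a lipid kinase complex around Pik3c3 and Becn1 marks the membrane, and ubiquitin-like conjugation systems attach Atg8 family proteins, of which LC3 is the best known, to it. Receptors then tie cargo to the Atg8 proteins. Red cell precursors use this route to remove their mitochondria, and Bnip3l, also called Nix, is the mitochondrial receptor known for that step in mouse reticulocytes.

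Each level is a spot intensity after scaling, which set the 75th percentile of probes detected on every array to a common value. They differ between genes by probe as well as by abundance, so each gene is compared with itself across arrays. In bulk RNA, fewer cells of a type and less RNA per cell cannot be told apart. The members well above background numbered 28 on the null and 32 on the wild-type bone marrow array, and 30 on the null and 24 on the wild-type fetal liver array. Over all genes the numbers were 13970, 13953, 15468 and 13217, in the same order, so detection differed across the whole fetal liver arrays too. The members' median levels were 104 and 78.3 in bone marrow and 79.1 and 95.1 in fetal liver, in the same order. The medians over all genes detected on those arrays were 64.1, 67.4, 72.7 and 91.4.

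**Figure D1:**
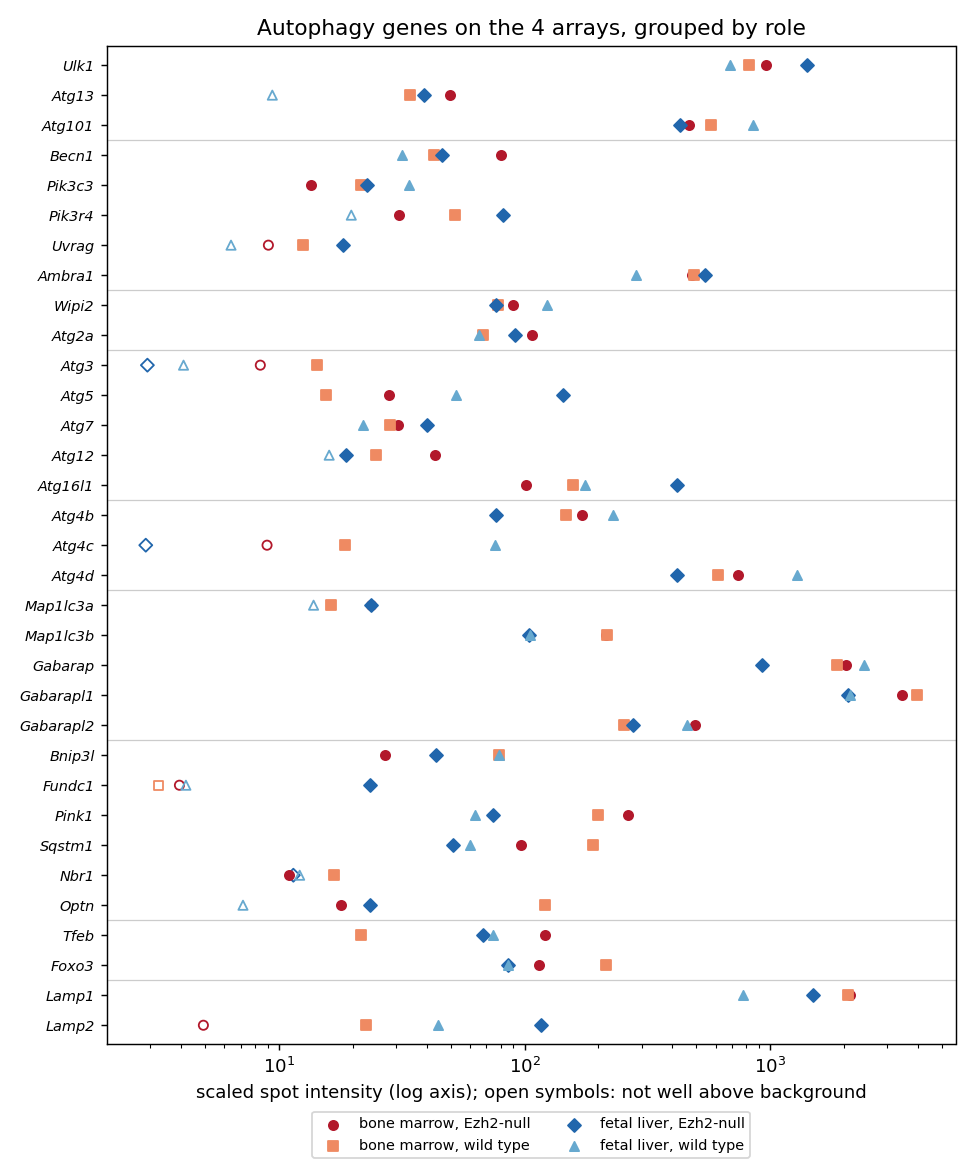
Scaled spot intensity (log axis) of the 33 detected autophagy genes on the 4 arrays, grouped by role from initiation at the top to lysosome membrane at the bottom, with open symbols for signals not well above background. Gabarapl1 is the brightest on every array but wild-type fetal liver, where Gabarap is, and Map1lc3b and Pink1 sit higher on both bone marrow arrays than on both fetal liver arrays.

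Between genotypes, the members did not move as a block. In bone marrow 1 of 32 members compared was higher by 2-fold or more in null progenitors (3.12%, against 4.54% of 15275 genes) and 3 were lower (9.38%, against 7.64%). In fetal liver 6 of 31 were higher (19.4%, against 15.4% of 16252 genes) and 4 lower (12.9%, against 13.3%). The median difference of the members was 0.01 log2 in bone marrow and 0.00 in fetal liver, beside −0.03 and −0.14 for all genes. These shares lie near those of all genes in both sources. Of the 30 members compared in both sources, 9 had the higher level in null progenitors in each source, 7 had the lower, and 0 passed 2-fold the same way in each (0.959% of 13864 genes were higher in each and 0.599% lower in each). Lamp2 passed in opposite directions, as 3.72% of all genes did.

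**Figure D2:**
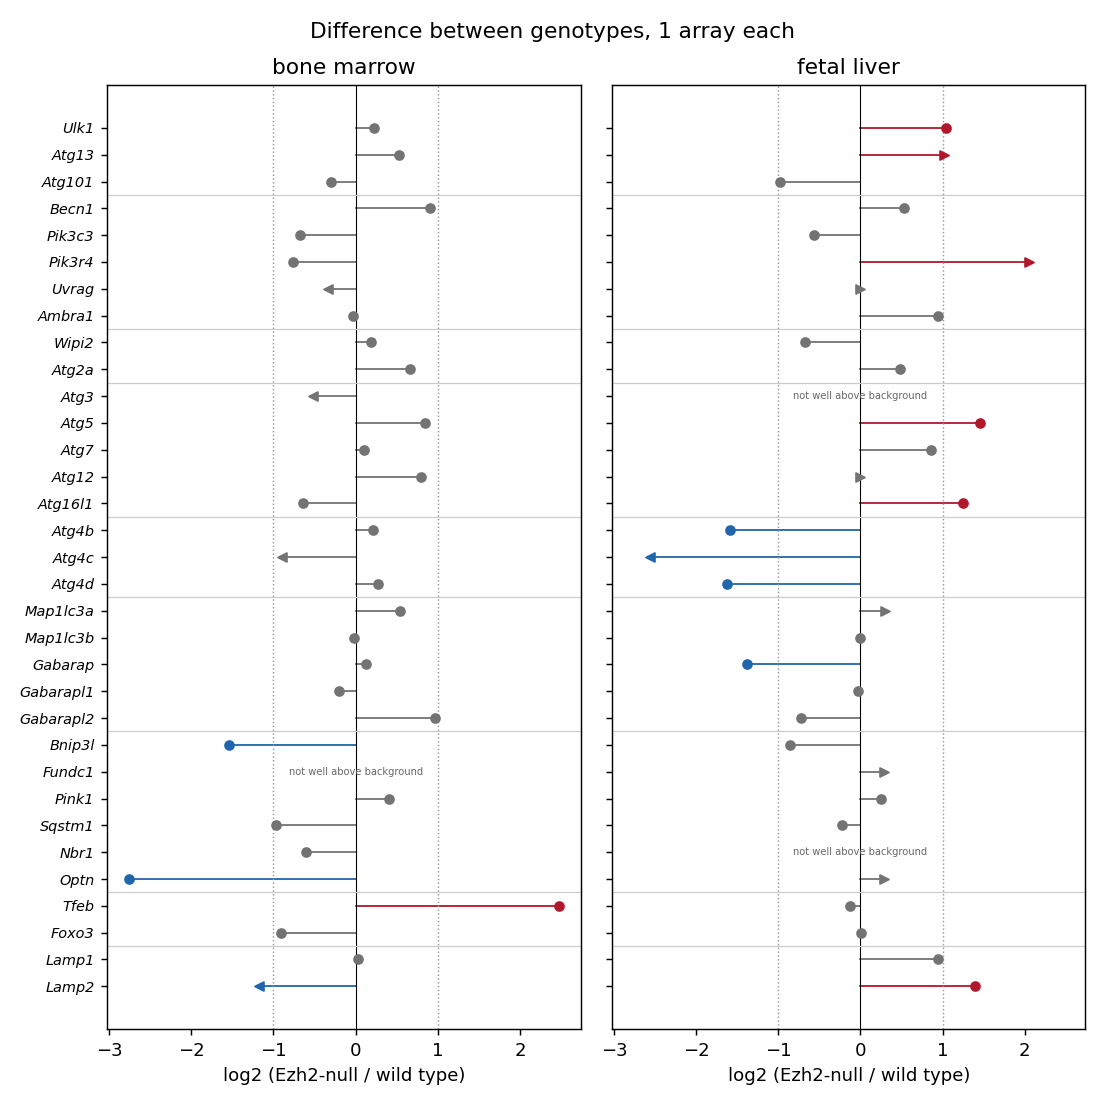
Log2 difference of Ezh2-null over wild type for each detected autophagy gene in bone marrow and fetal liver, 1 array per group, with dotted lines at 2-fold, red for higher and blue for lower, and triangles for bounds. Optn and Tfeb lie furthest out in bone marrow, the Atg4 proteases and Pik3r4 in fetal liver.

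Of 5 initiation genes, 3 could be compared in fetal liver, where Ulk1 and Atg13 were past 2-fold higher in null (15.4% of all genes were) and Atg101 was lower by less than 2-fold. Ulk1, the kinase that starts autophagosome formation, read 957 on the null and 822 on the wild-type bone marrow array, and 1418 on the null and 688.5 on the wild-type fetal liver array. The null level was thus 2.06-fold the wild-type level in fetal liver and 1.16-fold in bone marrow. Atg13, the subunit that links Ulk1 to the complex, was not well above background on the wild-type fetal liver array and at 38.9 on the null one, at least 2.02-fold higher. A fold of this kind is a bound, taken against the higher of the array's detection floor (19.3 for wild-type fetal liver) and the dim probe's own signal. In bone marrow Atg13 read 49.55 on the null and 34.25 on the wild-type array. Atg101, the partner that stabilises Atg13, went the other way in fetal liver, at 431 on the null and 849 on the wild-type array (1.97-fold lower), with 465 and 575 in bone marrow. With the trend on probe position removed (described below), Ulk1 was 0.47 and Atg13 0.70 log2 higher in fetal liver, both under 2-fold. With the percentile taken over all probes they were 0.88 and 0.85. The Atg13 values are bounds here too.

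In the lipid kinase complex, Pik3r4, the scaffold subunit that anchors the kinase, stood furthest apart. It read 81.4 on the null fetal liver array and was not well above background on the wild-type one (19.7), which makes it at least 4.13-fold higher in null. In bone marrow it was 30.8 on the null and 52.1 on the wild-type array, 1.69-fold lower on the null array. The Pik3r4 probe was printed 10 times, and the log2 SD between its copies was 0.121 on the null bone marrow array, 0.119 on the wild-type one and 0.125 on the null fetal liver array, which covers error within an array only. The other members of this group stayed under 2-fold in both genotype comparisons. Becn1, which recruits the kinase to its regulators, was 80.3 on the null and 43.0 on the wild-type bone marrow array and 46.05 on the null and 31.8 on the wild-type fetal liver array, so null was the brighter of the pair in each source. Pik3c3, the catalytic subunit, was lower on the null array in both, at 13.5 against 21.5 in bone marrow and 22.8 against 33.7 in fetal liver. Ambra1, a positive regulator of the complex, read 543.5 on the null and 284 on the wild-type fetal liver array (1.92-fold) but 479 and 490.5 in bone marrow. Uvrag, tied to a later form of the complex, was close to the detection floor throughout. Of the genes that act on the growing membrane, the lipid transfer gene Atg2a was 1.58-fold higher in null bone marrow and 1.39-fold higher in null fetal liver. The phosphoinositide reader Wipi2 was 1.14-fold higher in null bone marrow and 1.60-fold lower in null fetal liver.

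In fetal liver 2 of 4 conjugation genes compared were past 2-fold higher in null (15.4% of all genes were), and 3 of 3 Atg4 proteases, which prime Atg8 proteins and later cut them off the membrane, were past 2-fold lower (13.3% of all genes were). Atg5, which forms a conjugate with Atg12, read 144 on the null and 52.4 on the wild-type fetal liver array (2.75-fold higher) and 28.0 and 15.6 in bone marrow (1.80-fold higher). Atg16l1, which places that conjugate on the membrane, was 418 on the null and 176 on the wild-type fetal liver array, 2.37-fold higher. In bone marrow it was 101 on the null and 157.5 on the wild-type array, 1.55-fold lower. Atg5 was brighter in null in each source, while Atg16l1 went opposite ways in the sources, a difference that was not tested. With normexp background correction, of the 6 members at least 2-fold higher in null fetal liver Ulk1 alone stayed past 2-fold. Atg5 was then at 0.46, Atg16l1 at 0.87 and Pik3r4, as a bound, at 0.28 log2. Atg7, the activating enzyme of both conjugation systems, was 40.1 on the null and 22.03 on the wild-type fetal liver array and 30.5 and 28.5 in bone marrow. Atg12 reached 43.2 on the null and 24.95 on the wild-type bone marrow array, and in fetal liver was near the floor. Atg3, which joins Atg8 proteins to lipid, was detected on the wild-type bone marrow array alone (14.3).

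All 3 detected Atg4 proteases were lower on the null array in fetal liver. Atg4d read 416 on the null and 1285 on the wild-type fetal liver array, 3.09-fold lower. Atg4b, the most active of the family on LC3 in mammals, read 76.4 on the null and 230.0 on the wild-type array, 3.01-fold lower. Atg4c was not well above background on the null array and at 76.2 on the wild-type one, at least 5.88-fold lower. The 3 genes stayed at least 2-fold lower in each of the alternative settings run for them, between −2.85 and −1.11 log2. The settings on probe choice, detection on both arrays and the series table could not change these calls. Atg4b and Atg4d have 1 probe each, and the dim second Atg4c probe described below entered neither probe setting. In bone marrow none of the 3 was 2-fold apart: Atg4d was 739 on the null and 613 on the wild-type array, Atg4b 171 and 148, and Atg4c was detected on the wild-type array alone (18.5). A second Atg4c probe, which starts 16 bases upstream of the first and overlaps it, was not well above background on any array.

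Within the Atg8 family, the proteins that coat the autophagosome, 1 of 5 members was past 2-fold lower and 0 higher in null fetal liver (13.3% and 15.4% of all genes), and 0 of 5 passed 2-fold in bone marrow (7.64% of all genes lower and 4.54% higher), shares near those of all genes. Gabarap read 924 on the null and 2402 on the wild-type fetal liver array, 2.60-fold lower, and 2031 and 1863 in bone marrow. A second Gabarap probe read 170.5 on the null and 296 on the wild-type fetal liver array (0.80 log2 lower) and 308 and 275 in bone marrow. With spike-in scaling the first probe was 0.92 log2 lower in null fetal liver, under 2-fold. Gabarapl2 was 277.5 on the null and 458 on the wild-type fetal liver array, 1.65-fold lower. In bone marrow it was 493 on the null and 253.5 on the wild-type array, 1.95-fold higher. Gabarapl1, the brightest member of the set on 3 of the arrays, differed little by genotype, with 3449 on the null and 3958 on the wild-type bone marrow array and 2071 and 2123 in fetal liver. Map1lc3b, which encodes the LC3 form used as the usual marker of autophagosomes, was 215 on the null and 217.5 on the wild-type bone marrow array and 104.5 on the null and 105 on the wild-type fetal liver array. Its probe was also printed 10 times, with a log2 SD between copies of 0.03 to 0.10, and the genotype differences of −0.02 in bone marrow and −0.01 in fetal liver were smaller than that spread. Map1lc3a had low levels, at 23.7 on the null and 16.3 on the wild-type bone marrow array and 23.65 on the null fetal liver array, and was dim on the wild-type fetal liver array alone.

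Bnip3l is the member most closely tied to mitochondrial clearance in red cell precursors, and its 4 probes did not give the same answer. The probe with the highest mean signal read 27.1 on the null and 78.45 on the wild-type bone marrow array (2.90-fold lower), and 43.5 on the null and 78.6 on the wild-type fetal liver array (1.81-fold lower). By this probe the null level was the lower in each source. The first 30 of the 60 bases of each probe are given here to show that the 4 read separate stretches of the transcript, all on the minus strand of chromosome 14 of build mm9, ordered by distance from the 5′ end.
probe at base 943, chr14:67606311-67606370: gtaagacactttagagattcctaacagagt
probe at base 1044, chr14:67606210-67606269: gttcattgtctcctcttagtaccaccagtc
probe at base 1167, chr14:67606087-67606146: gctttgtttagtctttgttttgttttccag
probe at base 3177, chr14:67604077-67604136: acagaactcatgtaacttgtagctataaac

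Only the probe at base 1044 was well above background on all 4 arrays. The probe at base 943 was not well above background on any. The probe at base 1167 read 36.65 on the null and 41.4 on the wild-type fetal liver array and was dim in bone marrow. The probe at base 3177, nearest the 3′ end, was detected on the null fetal liver array alone, at 57.55, which makes it at least 1.58 log2 higher there than on the wild-type array. The direction of Bnip3l in fetal liver therefore depended on the probe, while in bone marrow a single probe carries the value. The fall in bone marrow was 0.67 log2, under 2-fold, with normexp background correction.

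**Figure D3:**
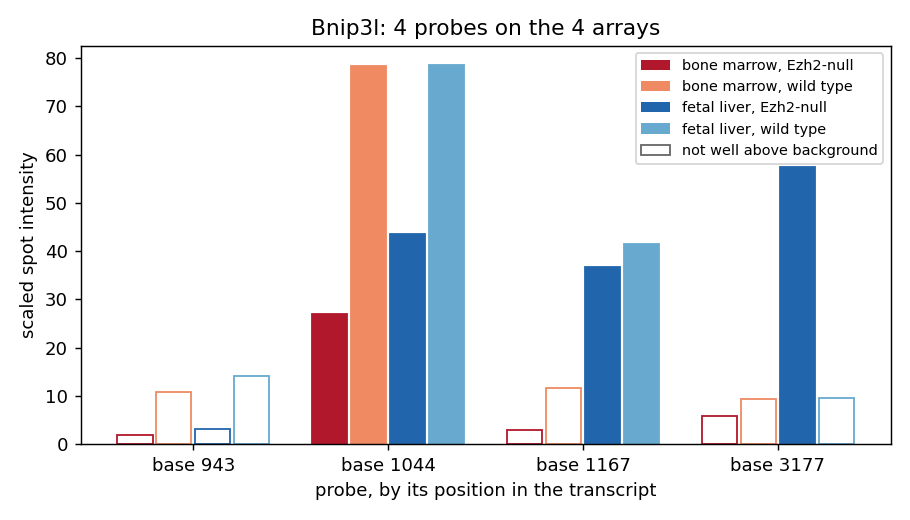
Scaled spot intensity (linear axis from 0) of the 4 Bnip3l probes, by their position in the transcript, on the 4 arrays, with white bars for signals not well above background. The probe at base 1044 is taller on both wild-type arrays, and the probe at base 3177 is above background on the null fetal liver array alone.

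Among the other receptors, Optn, which binds ubiquitinated cargo, had the largest genotype difference of the set in bone marrow. It read 17.95 on the null and 122 on the wild-type bone marrow array, 6.78-fold lower. In fetal liver it read 23.5 on the null array and was not well above background on the wild-type one, so that wild-type bone marrow was the single bright array. Sqstm1, the receptor that brings ubiquitinated protein to the autophagosome, was 96.9 on the null and 189 on the wild-type bone marrow array (1.95-fold lower) and 51.2 and 59.8 in fetal liver. Nbr1, which is related to Sqstm1, was 1.53-fold lower in null bone marrow and dim on both fetal liver arrays. Pink1, the kinase that marks damaged mitochondria, was 264 on the null and 199 on the wild-type bone marrow array and 74.4 and 62.6 in fetal liver, higher in null by 1.33-fold in bone marrow and 1.19-fold in fetal liver. Fundc1, an outer membrane receptor for mitophagy, was detected on the null fetal liver array alone, at 23.5.

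Of the transcription factors, Tfeb, which activates lysosome and autophagy genes, was the sole member past 2-fold higher in null bone marrow. It read 121 on the null and 21.7 on the wild-type bone marrow array (5.57-fold higher), and 67.8 and 74.1 in fetal liver. Wild-type bone marrow was thus the low array, with the other 3 at 67.8 or above. Foxo3, which activates autophagy genes together with GATA1 in erythroid cells, was 114 on the null and 214 on the wild-type bone marrow array (1.87-fold lower) and 85.4 and 85.25 in fetal liver. The Tfeb and Optn calls in bone marrow kept at least 2-fold in all 9 alternative settings, with ranges of 1.25 to 2.59 and −2.80 to −1.43 log2. Some of these settings could not change the calls. Each gene has 1 probe, detected on both bone marrow arrays, so probe averaging, the 3′ probe and detection on both arrays returned the same value. The series table holds the same intensities rounded.

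The lysosome membrane genes differed from each other. Lamp1 read 2115 on the null and 2071 on the wild-type bone marrow array, and 1493 on the null and 777 on the wild-type fetal liver array (1.92-fold higher). Lamp2, whose product is needed for autophagosomes to fuse with lysosomes, was not well above background on the null bone marrow array and at 22.65 on the wild-type one, at least 2.27-fold lower. In fetal liver it was 116.5 on the null and 44.2 on the wild-type array, 2.63-fold higher. A second Lamp2 probe at base 1139, upstream of the first at base 3455, read 14.3 on the null and 23.6 on the wild-type fetal liver array, the opposite order, and was not well above background in bone marrow. The array's annotation assigns these probes to different transcripts. The Lamp2 calls ended with all probes averaged, at −0.36 log2 in bone marrow and 0.34 in fetal liver, and with normexp, at −0.22 and 0.36. The bone marrow call also ended with quantile normalization, at −0.98. These bone marrow values are bounds, because both probes were dim on the null array, so the fall itself may be larger.

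Tfeb binds the E-box CACGTG. Promoters of 34 members were listed in RefSeq (GRCm38.p6), and the 250 bases before the start held this motif in 4 of them (11.8%, against 6.86% of 27025 genes with a promoter). The motif is its own reverse complement, so a match on either strand is counted once. In the lysosome list described below it stood in 8 of 21 promoters (38.1%). The 4 member promoters are printed, with CACGTG in capitals, because the levels of their genes are set beside those of Tfeb.
Lamp1, chr8:13158911-13159160, plus strand: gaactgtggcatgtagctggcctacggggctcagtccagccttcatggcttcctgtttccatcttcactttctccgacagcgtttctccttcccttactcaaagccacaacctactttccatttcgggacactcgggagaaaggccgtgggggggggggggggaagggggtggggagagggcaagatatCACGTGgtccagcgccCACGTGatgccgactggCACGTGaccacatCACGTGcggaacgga
Atg5, chr10:44268089-44268338, plus strand: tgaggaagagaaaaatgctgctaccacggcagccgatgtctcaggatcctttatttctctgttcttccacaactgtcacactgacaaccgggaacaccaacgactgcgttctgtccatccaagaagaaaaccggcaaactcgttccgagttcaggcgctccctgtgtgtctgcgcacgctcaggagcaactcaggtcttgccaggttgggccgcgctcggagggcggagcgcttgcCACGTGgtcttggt
Atg7, chr6:114670846-114671095, plus strand: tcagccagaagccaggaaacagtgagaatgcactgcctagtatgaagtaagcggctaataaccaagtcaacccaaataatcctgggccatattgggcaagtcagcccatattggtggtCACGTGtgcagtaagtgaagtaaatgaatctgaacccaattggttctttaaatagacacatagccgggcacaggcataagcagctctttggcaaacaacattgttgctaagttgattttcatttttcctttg
Atg3, chr16:45158579-45158828, plus strand: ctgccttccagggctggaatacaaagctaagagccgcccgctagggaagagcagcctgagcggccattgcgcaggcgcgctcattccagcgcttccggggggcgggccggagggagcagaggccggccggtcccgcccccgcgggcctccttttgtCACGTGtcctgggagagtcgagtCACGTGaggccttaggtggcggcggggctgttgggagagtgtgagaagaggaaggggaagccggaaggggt

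The Lamp1 promoter held 4 copies, the nearest starting 15 bases before the start, Atg3 held 2, and Atg5 and Atg7 1 each. In null bone marrow, where Tfeb was 5.57-fold higher, Lamp1 was 1.02-fold, Atg5 1.80-fold and Atg7 1.07-fold higher there, and Atg3 was at least 1.44-fold lower. None of the 4 passed 2-fold in that comparison, where 4.54% of 15275 genes were higher and 7.64% lower. For so few genes this is near those shares, and whether they follow Tfeb was not tested. The GATA motif GATAAG, searched on both strands, was found in 3 of the 34 promoters, those of Atg2b, Atg4a and Atg4d (8.82%, against 7.60% of all genes with a promoter).

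The fetal liver difference ran with probe position. Over all genes it rose along the transcript, with a median of −0.41 log2 in the 783 genes whose probes lay nearest the 5′ end and 0.44 in the 783 with the highest positions. Among the 31 members the Spearman correlation between probe position and log2 difference was 0.56, against 0.29 across 15645 genes, and in bone marrow it was −0.10 over 32 members. Genes on 1 pair of arrays are not independent replicates, and these correlations describe that pair only. The 6 members higher on the null fetal liver array had a median probe position of 3465 bases (2251 to 5130), and the 4 lower ones 1500 bases (1013 to 3079). With that trend removed 4 members were higher and 4 lower. In the null pair of the source comparison the members' correlation was −0.41 (31 members), against −0.13 across 16073 genes, and in the wild-type pair it was 0.12 (32 members), against 0.15 across 14794 genes. The part of probe position in the single genes was not tested beyond this.

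**Figure D4:**
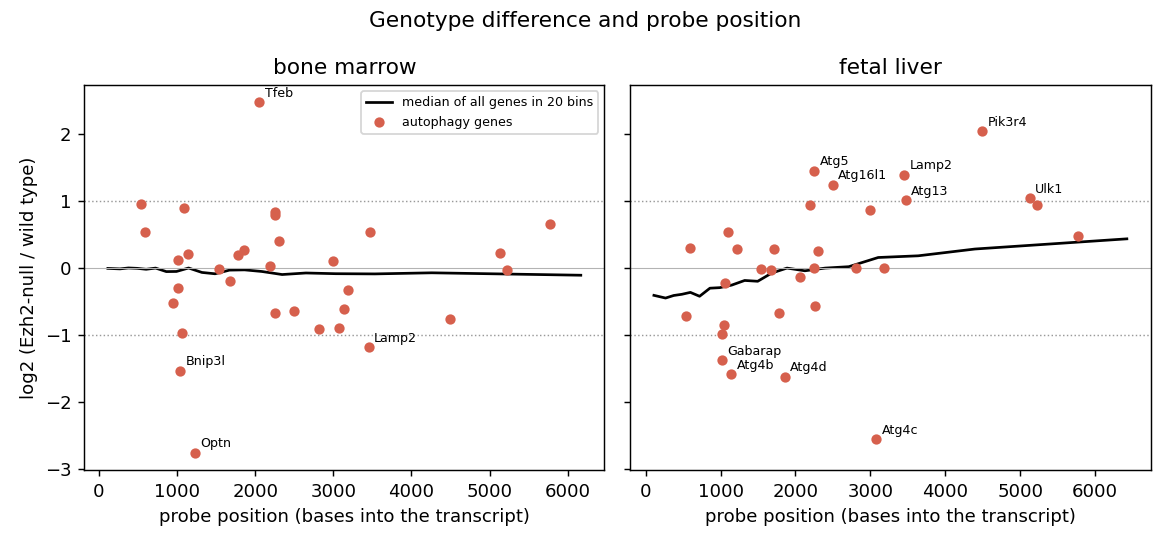
Log2 difference of Ezh2-null over wild type against the position of the probe in its transcript (bases), with autophagy genes as points, bounds included, and the median of all genes in 20 bins as a line. In fetal liver the line climbs from −0.41 to 0.44 and the 6 higher members lie at base 2251 or beyond, while in bone marrow the line is flat.

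Other measures differed between the same arrays. Xist, which silences the inactive X, read 743 on the null fetal liver array and was not well above background on the other 3, and the labels give no sex. Among the X-linked members, Fundc1 and the Lamp2 probe at base 3455 were brightest on that array. The second Lamp2 probe went the other way, at 14.3 on the null and 23.6 on the wild-type fetal liver array. Atg4a, also X-linked, was dim on all 4. Of 7 later erythroid markers on the array, 3 of 5 compared passed 2-fold higher in null bone marrow (4.54% of all genes did) and 3 of 5 lower in null fetal liver (13.3% of all genes). Of 5 B lymphoid markers on the array, 4 were detected on the null bone marrow array, with a summed level of 2400, against 1 detected and a sum of 38.1 on the wild-type one. The summed megakaryocyte markers were 764 on the null and 283 on the wild-type bone marrow array, with 3 of 5 compared past 2-fold higher in null, against the same 4.54%. Of 8 macrophage markers, 3 to 4 were well above background per array, with summed levels of 507 on the null and 601 on the wild-type bone marrow array and 611 and 694 in fetal liver, and the lysozyme gene Lyz2, C1qa, Mrc1 and Vcam1 were dim on all 4. The part of sex and of cell mixture in the member differences was not tested.

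Between sources the members' median was above that of all genes in both genotypes. In wild type, 7 of 32 members were higher by 2-fold or more in bone marrow than in fetal liver (21.9%, against 13.1% of 15379 genes) and 4 were lower (12.5%, against 31.8%). In Ezh2-null progenitors 5 of 31 were higher (16.1%, against 10.4% of 16684 genes) and 5 lower (16.1%, against 26.9%). The median difference was 0.22 log2 in null and 0.00 in wild type, beside −0.51 and −0.58 for all genes, so the members stood 0.73 and 0.58 above that median. Under the 3 other scalings the members' median stayed 0.63 to 0.75 above in null and 0.50 to 0.53 in wild type. The percentile over all probes and spike-in scaling shift every gene of an array alike, so they could hardly change this gap. With normexp background correction the gap was 0.46 in null and 0.59 in wild type. The counts followed the scaling: with spike-in scaling, which put the median of all genes at 0.32 in null and 0.64 in wild type, 16 members were higher and 3 lower in null, and 19 higher and 0 lower in wild type. The same 4 arrays also enter the genotype comparisons, so these values are not independent of those above.

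Pink1 and Map1lc3b were the members at least 2-fold higher in bone marrow in both genotypes (6.67% of 30, against 5.11% of all genes). Pink1 was 3.55-fold higher in null (264 in bone marrow, 74.4 in fetal liver) and 3.18-fold higher in wild type (199 in bone marrow, 62.6 in fetal liver). Map1lc3b was 2.06-fold higher in null and 2.07-fold higher in wild type, with its bone marrow values of 215 and 217.5 and its fetal liver values of 104.5 and 105 each nearly alike between genotypes. Gabarapl1 was 1.67-fold higher in null and 1.86-fold higher in wild type, the same way but under 2-fold. Atg5 was the sole member at least 2-fold lower in both genotypes (3.33%, against 10.5% of all genes), by 5.13-fold in null (28.0 in bone marrow, 144 in fetal liver) and 3.36-fold in wild type (15.6 in bone marrow, 52.4 in fetal liver).

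Of the 30 members compared between sources in both genotypes, another 11 passed 2-fold in exactly 1 (36.7%, against 45% of 14400 genes). In null, Lamp2 was at least 11.7-fold lower in bone marrow, and Atg16l1 4.12-fold lower, while Atg12 was 2.31-fold, Atg4b 2.24-fold and Gabarap 2.20-fold higher. In wild type, Optn was at least 6.31-fold higher in bone marrow, Sqstm1 3.17-fold, Lamp1 2.67-fold and Foxo3 2.51-fold higher, while Tfeb was 3.42-fold and Atg4d 2.10-fold lower. Pik3r4 passed in both genotypes in opposite directions (2.52% of all genes did), 2.64-fold lower in null and at least 2.65-fold higher in wild type, and Fundc1 and Atg4c could be compared in 1 genotype alone, at least 2.36-fold lower in null and 4.11-fold lower in wild type. With spike-in scaling the wild-type difference of Atg4d was 0.19, of Tfeb −0.52, of Atg5 −0.49 and of Atg4c −0.79 log2, and the null difference of Pik3r4 was −0.55. That Pik3r4 difference was also under 2-fold with the percentile over all probes (−0.78), quantile normalization (−0.79) and normexp (−0.89). The wild-type bound of Pik3r4 was 0.00 with normexp. With normexp, Map1lc3b was 0.64 log2 higher in null and 0.42 in wild type, and Pink1 1.16 and 0.63. Also under 2-fold with normexp were Sqstm1 (0.52) and Optn (a bound, 0.60) in wild type, and Atg12 (0.13) and Atg4b (0.65) in null. With the position trend removed, Map1lc3b was 0.92 in null and 0.85 in wild type, and Gabarap was 0.92 in null. Foxo3 is named here beyond the rule for named genes, after its values were seen.

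**Figure D5:**
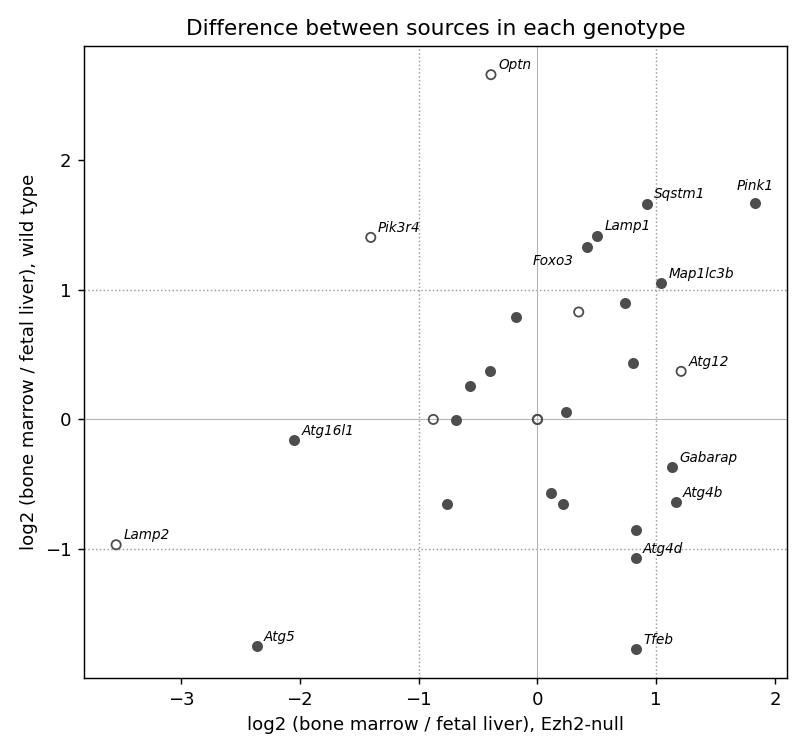
Log2 difference of bone marrow over fetal liver for each autophagy gene in Ezh2-null (horizontal) and wild type (vertical), with dotted lines at 2-fold and open circles where at least 1 value is a bound. Pink1 and Map1lc3b lie beyond 2-fold higher on both axes and Atg5 beyond 2-fold lower. Several members, among them Pik3r4, Tfeb, Optn and Atg4d, lie on opposite sides of 0 on the axes.

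The 2 by 2 layout allowed 1 fit across all arrays, with source and genotype as additive terms in limma and 1 residual degree of freedom. It was run on 16249 genes, 30 of them members. Signals under the highest floor (19.3) were raised to it. This applied to Lamp2 on the null bone marrow array (4.93) and to Atg5 on the wild-type one (15.6), and made both source estimates below smaller in size. For source, 0 members passed an adjusted p of 0.05 (0% of all genes did), and 5 had an unadjusted p under 0.05 (16.4% of all genes): Pink1 (1.75 log2 ± 0.41 SE, higher in bone marrow), Atg5 (−1.90 ± 0.45), Lamp2 (−1.78 ± 0.54), Sqstm1 (1.29 ± 0.44) and Map1lc3b (1.05 ± 0.40), with limma adjusted p-values from 0.241 to 0.303. With the percentile over all probes 1 member, Pink1, passed for source (limma adjusted p 0.0122). For genotype 0 members passed (0% of all genes), and Bnip3l alone had an unadjusted p under 0.05 (1.71% of all genes), at −1.19 ± 0.43 log2 on the null arrays with a limma adjusted p of 0.996. In each of these 6 genes the 2 differences behind the estimate had the same sign, although the Bnip3l probe at base 3177 went the other way in fetal liver. The residual of this fit is the disagreement between those 2 differences. Picking genes by a low p therefore favours the same sign, which adds no support. For source, 5 of 30 members is a share near that of all genes.

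Companion genes of the pathway also lay on both sides. Shares of each list are set against those of all genes, 4.54% higher and 7.64% lower in null bone marrow and 15.4% higher and 13.3% lower in null fetal liver. Of 22 further mitophagy and cargo genes, 1 of 19 compared passed 2-fold higher in null bone marrow (5.26%) and 5 lower (26.3%), and 2 of 17 were higher (11.8%) and 2 lower (11.8%) in null fetal liver. In bone marrow the lower ones included the mitochondrial fusion gene Mfn1 (at least 3.22-fold), the mitochondrial ubiquitin ligase gene Mul1 (2.32-fold) and Bnip3 (2.12-fold), the hypoxia-induced relative of Bnip3l. Bnip3 read 103 on the null and 218 on the wild-type bone marrow array and 375 and 244 in fetal liver. The deubiquitinase gene Usp30, which opposes mitophagy, was at least 2.19-fold higher in bone marrow. In fetal liver the fission gene Dnm1l was at least 3.71-fold higher, and Wdfy3 at least 5.16-fold and Fkbp8 2.29-fold lower. Dnm1l, at least 2.02-fold lower in null bone marrow, went opposite ways in the sources, a difference that was not tested.

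Of 23 autophagosome formation and fusion genes, 1 of 21 was past 2-fold higher (4.76%, against 4.54% of all genes) and 6 lower (28.6%, against 7.64%) in null bone marrow, and 4 of 17 were higher (23.5%, against 15.4%) and 6 lower (35.3%, against 13.3%) in null fetal liver. Lower in bone marrow were Sh3glb1 (2.85-fold), the fusion gene Snap29 (at least 2.79-fold) and Zfyve1 (at least 2.70-fold), and higher was the tethering subunit Vps39 (at least 2.17-fold). In fetal liver the tethering subunit Vps11 was 3.21-fold, Vmp1 3.21-fold and Plekhm1 at least 3.16-fold lower, while Wdr45 was 3.14-fold, Tecpr1 at least 2.66-fold and Atg9a, the membrane scramblase, at least 2.45-fold higher.

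Of 28 lysosome genes, 2 of 24 compared were past 2-fold higher (8.33%, against 4.54% of all genes) and 2 lower (8.33%, against 7.64%) in null bone marrow, and 3 of 23 were higher (13.0%, against 15.4%) and 4 lower (17.4%, against 13.3%) in null fetal liver, so the list's shares lay near those of all genes. In bone marrow Psap, which encodes activators of lipid breakdown, was 3.23-fold and Scarb2 2.38-fold higher, and the sialidase gene Neu1 3.00-fold and Cd63 2.37-fold lower. In fetal liver the proton pump subunit Atp6v1a was 6.17-fold higher (380 on the null and 61.6 on the wild-type array), with Atp6ap2 2.47-fold higher. The pump subunits Atp6v0e (2.84-fold) and Atp6v0d1 (2.35-fold) and the protease gene Ctsb (2.24-fold) were lower there, so subunits of the same pump lay on both sides.

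Among 29 nutrient and energy signalling genes, 1 of 22 was past 2-fold higher (4.55%, against 4.54% of all genes) and 2 lower (9.09%, against 7.64%) in null bone marrow, and 4 of 19 were higher (21.1%, against 15.4%) and 5 lower (26.3%, against 13.3%) in null fetal liver. Depdc5, a subunit of the complex that restrains mTORC1 when amino acids are scarce, was 177 on the null and 25.0 on the wild-type fetal liver array (7.11-fold higher), and at least 5.18-fold lower in null bone marrow. Its partner Nprl2 was 5.39-fold lower in fetal liver. Tsc1, which restrains mTORC1 through Rheb, was 5.18-fold higher in fetal liver and Tfe3, a relative of Tfeb, 3.46-fold higher, while Stk11, the kinase upstream of AMPK, was 2.59-fold and Lamtor2 2.55-fold lower. In bone marrow Tsc2 was at least 2.49-fold lower and Zkscan3, a repressor of autophagy genes, 2.06-fold higher. All of these are single-array differences without a replicate check.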

How the data were processed

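Per the labels' protocols, 250 ng of Trizol-extracted RNA with spike-ins was amplified and Cy3-labelled. Intensity values in the deposited files came from the scanner software (Agilent Feature Extraction 10.7.3.1, protocol GE1_107_Sep09), which subtracted and detrended background, per the file headers. The deposited 0 or 1 flags were also used. The authors' series table held the same intensities rounded, within 0.496%.

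Control and outlier spots were left out, no spot was saturated, and spots of a probe were averaged. Log2 intensities were scaled to the 75th percentile of 12874 probes detected on every array. The planned percentile left this set open. Gene names were updated through RefSeq (GRCm38.p6); probe coordinates are on mm9. The probe with the highest mean signal stood for a gene. A probe dim on 1 array of a pair gave a bound against the floor (9.99 null and 11.1 wild-type bone marrow, 12.95 null and 19.3 wild-type fetal liver). A bound with the wrong sign was entered as 0.

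The additive fit used limma 3.58.1 (R 4.3.3), Benjamini-Hochberg adjustment and signals raised to the highest floor, dropping genes at the floor on all arrays. It was run on simulated additive data with changes larger than any member estimate here. That run cannot show how well estimates of the size reported are recovered. The labels do not say whether arrays came from separate animals. Named genes were Bnip3l, Ulk1, the Atg8 family, members at least 2-fold apart by genotype, the 4 highest and 4 lowest members in each source comparison, and the 3 furthest of each companion list each way in each genotype comparison; other members are given for completeness. Some companion genes that this rule names are not reported here. Members and lists were chosen with earlier results of these data known. Alternatives were 3 other scalings, normexp (offset 50), all probes averaged, the probe nearest the 3′ end, detection on both arrays, removal of the probe position trend (20 bins) and the series table. The averaging took only probes well above background on at least 1 array. The number of arrays limits the precision.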

Additional observations from a re-analysis of the deposited data

Results flagged for a closer look

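Lamp2 differed by genotype in opposite directions in the 2 sources. It was at least 2-fold apart in each, with a log2 difference of Ezh2-null over wild type of at most −1.18 in bone marrow (a bound) and 1.40 in fetal liver. With all probes averaged the values were −0.36 and 0.34, both under 2-fold. With normexp they were −0.22 and 0.36, and with quantile normalization the bone marrow value was −0.98. Each of these bone marrow values is also a bound, so the fall itself may be larger. The second Lamp2 probe went the other way in fetal liver (−0.72). The difference between the sources was not tested, since each group is 1 array.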

How the results depend on the processing

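The 9 alternatives changed the counts between sources more than those between genotypes. With the percentile over all probes, 3 members were at least 2-fold higher in null bone marrow; between sources 13 were higher and 3 lower in null, the median was 0.84 log2 in null and 0.27 in wild type, and 1 member passed the limma source term. With quantile normalization the null source comparison gave 8 higher and 3 lower with a median of 0.63, and the wild-type median was 0.31. With spike-in scaling, which rests on 3 probes, the fetal liver genotype median was 0.46 and 2 members were higher in null bone marrow; between sources 16 were higher and 3 lower in null (median 1.07), and 19 higher and 0 lower in wild type (median 1.17). With normexp 1 member was higher in null fetal liver and 1 lower in null bone marrow, and between sources 1 was higher in wild type, and 2 higher and 3 lower in null (median 0.00). With all probes averaged the fetal liver genotype median was 0.25 and 2 members were higher in null bone marrow; with the probe nearest the 3′ end that median was 0.29. Detection on both arrays left 3 members lower between sources in null. Removal of the position trend gave 7 lower in wild type, and 3 higher with a median of 0.37 in null.

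Some directions turned. Between sources in wild type, Atg16l1 was 0.19 with the percentile over all probes, and with spike-in scaling Atg16l1 was 1.09, Atg4b 0.62, Atg4d 0.19, Gabarap 0.89, Gabarapl2 0.40 and Lamp2 0.29; Atg12 was −0.21 without the position trend. In null, Optn was 0.24 with the percentile over all probes, 0.35 with quantile normalization and 0.46 with spike-in scaling, under which Bnip3l was 0.17 and Ulk1 0.29. Between genotypes in fetal liver, Sqstm1 was 0.23 with spike-in scaling and Pink1 −0.21 with normexp. Bnip3l was 0.52 there with its detected probes averaged and 1.58 by the probe nearest the 3′ end. That average left out the probe at base 943, which was dim on every array. The causes were not tested.

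Of all genes called in fetal liver, 53.7% were higher in null, against 41.7% with the percentile over all probes and 82.7% with spike-in scaling. In wild type 29.2% of the genes called between sources were higher in bone marrow, against 54.9% and 94.1%, and in null 27.9%, against 64.2% and 73.4%. The limma source term called 0 genes, against 959 with the percentile over all probes, 1287 with normexp, 258 over genes detected on all arrays, 212 with quantile normalization and 115 with a trended prior; the genotype term called 0, against 8 with the percentile over all probes and 14 with normexp. No paired analysis was possible because each group is 1 array, and no array could be left out. Members near the floor carry bounds only.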
